A study of Caenorhabditis elegans with 6 samples.

Results

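The genes of the respiratory chain and of the proton pumps were followed in the P1 and AB cells of the 2-cell *Caenorhabditis elegans* embryo. They were chosen by name, and their level was not part of the rule, though earlier results of these data were known when the choice was made. The choice took every gene model whose public name in the deposited table begins with *nuo*, *cco*, *cox*, *ucr*, *cyc*, *isp*, *sdha*, *sdhb*, *sdhd*, *atp*, *asb*, *asg* or *vha* followed by a number, and 4 genes with other names, among them *mev-1*, *lpd-5* and *unc-32*. This gave 50 of 20240 gene models: 23 of the electron transport chain, 8 of ATP synthase and 19 of the vacuolar proton pump (V-ATPase). No gene model had a *cox* name, and subunits listed only under a sequence name fell outside the choice.

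RNA was sequenced from 3 libraries of P1 cells and 3 libraries of AB cells, all of the wild-type strain N2, with no mutation or treatment that set the cells apart. AB is the larger anterior cell and P1 the smaller posterior cell, from which the germline descends. Each library was made from a pool of cells separated by hand after the eggshell was removed, and a P1 and an AB library that share a number form a pair made from matched cells. The mRNA was amplified by *in vitro* transcription from an oligo-dT primer before sequencing (RNA-amp-seq), so the libraries show amplified RNA of pooled cells rather than single cells. Levels are given as normalized read counts, in which the authors divided each library by 1 size factor. They compare a gene's share of the RNA, and a difference in total RNA between a P1 cell and an AB cell would not show in them. Orders between genes use counts per kilobase (kb) of spliced transcript. Whether reads scale with length after this amplification was not tested, and undivided counts give other orders in places. Whether the pools came from separate cultures is not given in the sources used here, so p-values measure the spread between pools.

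The electron transport chain of the inner mitochondrial membrane passes electrons from NADH (complex I) and succinate (complex II) through complex III and cytochrome *c* to oxygen (complex IV), and pumps protons as it does so. ATP synthase lets the protons back through the membrane and makes ATP. The V-ATPase works in the other direction and spends ATP to acidify lysosomes and other compartments, with a peripheral V1 sector that splits ATP and a membrane V0 sector that carries protons. An early embryo lives on mitochondria and mRNA laid down by the mother in the oocyte.

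The libraries held 21249850 to 35591254 counted reads, so that 3 counts correspond to 0.0843 to 0.141 CPM, a floor that covers counting error only. The signs of 5 transcripts were compared with the labels. *mex-3*, *neg-1* and *erm-1*, reported for AB, were lower in P1, and *chs-1* and *pgl-3*, reported for P1, were higher in P1. All 5 were past the threshold (edgeR's quasi-likelihood test, adjusted p between 1.30e-05 and 0.0675). Of these, the paper names *mex-3* as known from earlier work. It listed the others from these same libraries, so their passing is no independent check of the labels. In its *in situ* counts of fluorescent particles, *neg-1* and *chs-1* leaned as listed, while *pgl-3* did not differ significantly from a control transcript. The *chs-1* signal was granular and single molecules could not be counted reliably, but the paper reports a similar result from total fluorescence. *pos-1* and *cey-2*, known for P1 from earlier work, did not reach the paper's threshold in these data. P1 replicate 1 stood apart: its Pearson correlation with the other libraries, on log2 normalized read counts, was 0.911 to 0.924, against 0.951 to 0.980 for all other pairs of libraries. Markers of maternal tissue and sperm (9 of 10 listed were found) summed to 233, 7 and 2 reads in P1 replicates 1, 2 and 3, against 253, 24 and 66 reads in AB. The yolk protein genes *vit-2*, *vit-5* and *vit-6* made up most of the reads in replicate 1 of both cells, and the 3 sperm genes had 0 reads in every library. How reads matching several genes were handled is not given, so the lack of reads does not show that sperm RNA was absent. What part carry-over has in the results below was not tested.

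Nearly all of the chosen genes were measured. Reads were found for 49 of the 50 genes, and 47 were present, which means a mean above 10 normalized read counts over the 6 libraries with reads in both cells. The 47 were 22 of 23 genes of the electron transport chain, 8 of 8 of ATP synthase and 17 of 19 of the V-ATPase. The others were *cyc-2.2*, *vha-5* and *vha-6*, described with their families below.

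None of the 47 present genes differed between P1 and AB past the threshold, an adjusted p under 0.10 (edgeR's quasi-likelihood test on raw counts, p adjusted by Benjamini-Hochberg for all 13717 gene models that had reads). Over all 7945 present genes the same test called 0.856% higher in P1 and 0.604% lower. DESeq2 and the fit with the replicate number as a block likewise called 0 of the 47, against 1.2% higher and 0.944% lower over all present genes with DESeq2, and 0.642% and 0.503% with the block. At an unadjusted p under 0.05, edgeR found 4 of the 47 higher in P1 and 1 lower, where 5.8% of all present genes were higher and 4.59% lower. The 4 were *nuo-6*, *cyc-2.1*, *vha-7* and *vha-17*, and the 1 was *unc-32*. The largest log2 fold change of a present member (P1 over AB) was 0.72 in size, and the smallest that was called over all present genes was 0.85. The standard errors of the members lay between 0.22 and 0.34, so that in this fit smaller differences were not detectable with 3 libraries a cell.

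The fold changes nonetheless lay mostly on one side. Of the 47, 42 had a fitted log2 fold change above 0, against 51.3% of all present genes. The median was 0.31 for the electron transport chain (21 of 22 above 0), 0.32 for ATP synthase (8 of 8) and 0.27 for the V-ATPase (13 of 17), against 0.01 over all present genes. Most of this lay in a single pair. The median log2 ratio of P1 to AB in pairs 1, 2 and 3 was 0.64, 0.15 and 0.02 for the electron transport chain. It was 0.74, 0.07 and 0.01 for ATP synthase, and 0.41, 0.16 and -0.02 for the V-ATPase. Over all present genes the 3 medians were -0.03, 0.01 and -0.00. P1 replicate 1, the library that stood apart, was the highest of the 6 libraries for 38 of the 47 members, against 33.3% of all present genes. Without it, the median log2 fold changes were 0.01, 0.02 and 0.04 for the electron transport chain, ATP synthase and the V-ATPase. Over all present genes the median of that fit was -0.02. Without both libraries of pair 1 the group medians were 0.07, 0.06 and 0.06, against -0.0007 over all present genes.

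**Figure D1:**
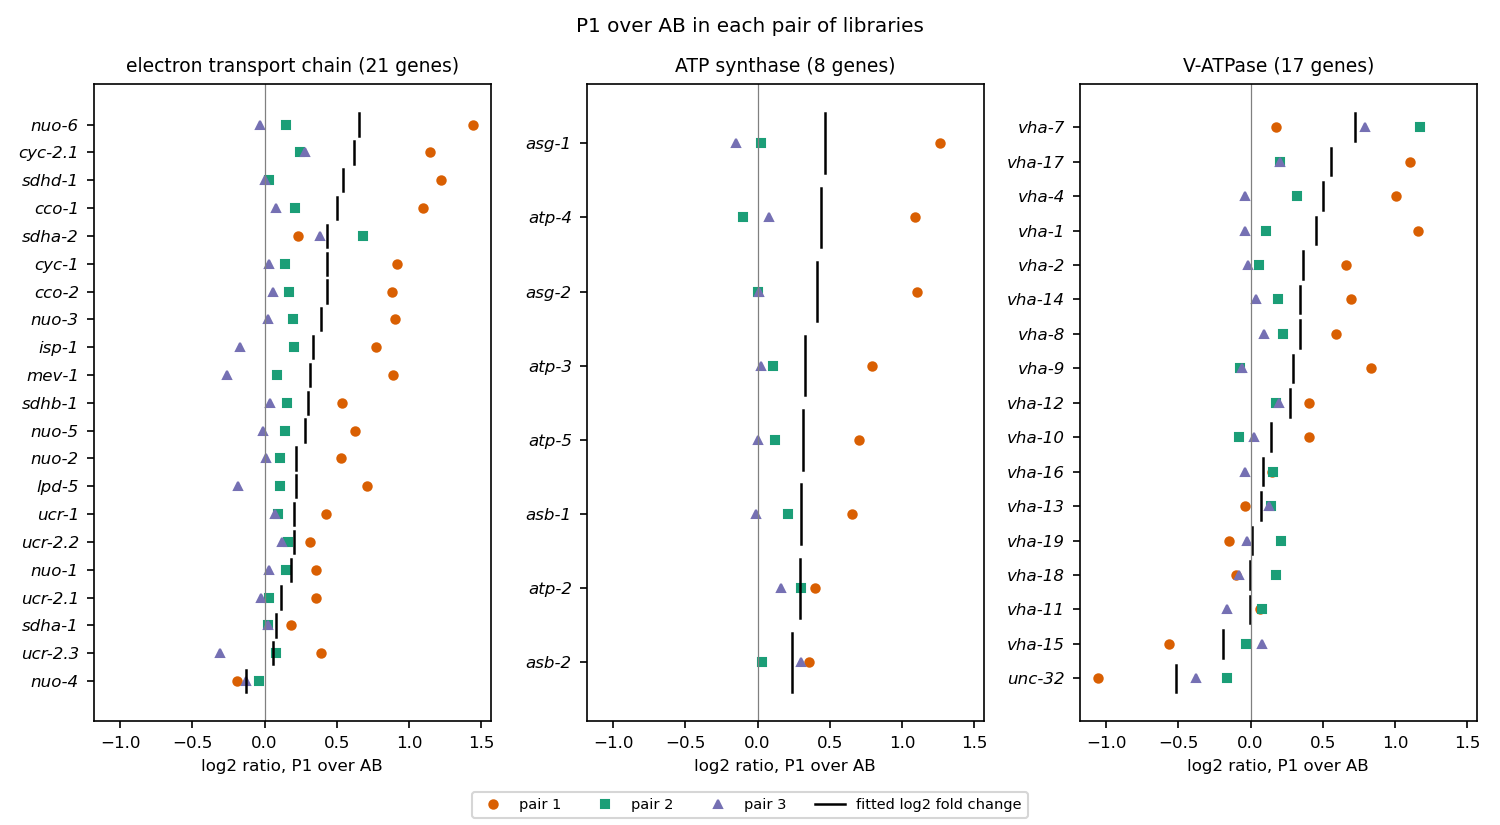
Log2 ratio of normalized read counts, P1 over AB (x axis, pseudocount of 1), of each present gene that is reported by name (rows) in pairs 1, 2 and 3 (circles, squares, triangles), with edgeR's fitted log2 fold change as a black line. The circles of pair 1 lie far to the right for most genes (group medians 0.64, 0.74 and 0.41), while pairs 2 and 3 lie near 0, and *vha-7* and *unc-32* stand at the ends of the V-ATPase.

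Some of the lean towards P1 remained in the counts of pair 2, and less in those of pair 3. In pair 2, 40 of the 47 members were higher in P1, against 4047 of all 7945 present genes. In pair 3, 27 of the 47 were higher, against 3949. In all 3 pairs, 22 of the 47 members were higher in P1, against 19.1% of all present genes, and 2 (*nuo-4* and *unc-32*) were lower, against 21.4%. In pairs 2 and 3 alone, 23 were higher in both, against 33.6%, and 3 were lower in both, against 32.8%. The sizes were small: 43 of 47 log2 ratios in pair 2 and 40 of 47 in pair 3 lay within 0.25 of 0, against 60.3% and 56.5% over all present genes. The present genes reach down to lower levels than the members, and genes of like level were not compared. Genes that code for subunits of one complex are not independent of each other, and no test was made of these counts.

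The ratios of pair 1 followed transcript length. Over the 47 members, Spearman's rho between spliced length and the log2 ratio was -0.82 in pair 1, 0.21 in pair 2 and 0.22 in pair 3. Over the 7806 present genes with a length it was -0.52, -0.04 and 0.04. These are correlations across genes of the same libraries, given as a description. The members are short, with a median spliced length of 1129 bp against 1546 bp for all present genes. In pair 1, the 11 members over 500 and up to 750 bp had a median log2 ratio of 1.09, against 0.81 for all present genes of that length. The 9 members over 1500 and up to 2000 bp had one of 0.35, against -0.16, and the 2 members over 3000 bp one of -0.44, against -0.77. In pair 2 the members over 500 and up to 750 bp were at 0.10, against 0.03 for all present genes of that length, and in pair 3 at -0.00, against -0.02. The part of length in the difference between P1 and AB was not tested beyond these values, and the length classes were chosen after the data were seen.

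**Figure D2:**
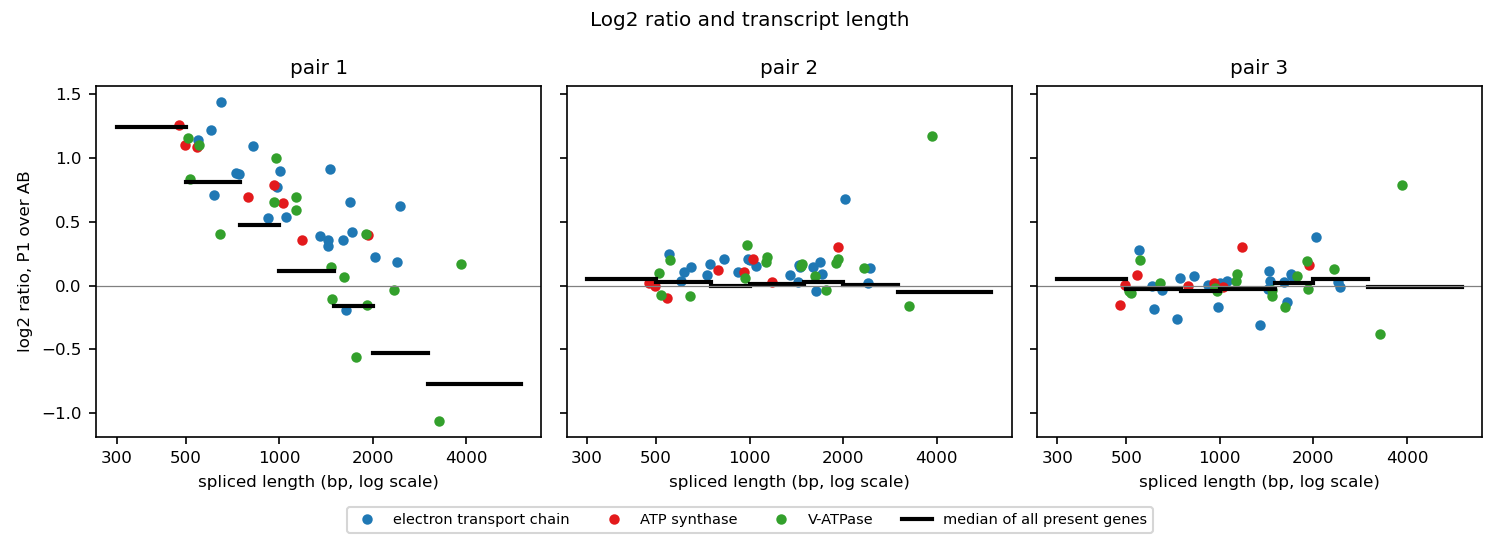
Spliced transcript length in bp (x axis, log scale) and log2 ratio, P1 over AB (y axis), of the 47 present genes in each pair, colored by group, with black lines for the median of all present genes in 7 classes of length. In pair 1 the short genes of all 3 groups lie highest (rho -0.82 over the 47), while pairs 2 and 3 show no such slope (rho 0.21 and 0.22).

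Complex I, which takes electrons from NADH, was represented by 8 genes, all present, and 7 had a log2 fold change above 0 (median 0.25). Per kilobase of spliced transcript, *nuo-3*, an accessory subunit related to human NDUFA6, had the highest level, with 14861, 11604 and 8948 normalized read counts per kb in P1 replicates 1, 2 and 3, against 7961, 10118 and 8821 in AB. P1 replicates 1 and 2 were above all AB libraries and P1 replicate 3 was among them. Undivided by length, *nuo-1* had the higher mean over the 6 libraries, 11006 against 10427 normalized read counts for *nuo-3*.

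*nuo-6*, related to NDUFB4, had the largest fold change of complex I and owed it to 1 library. Its normalized read counts were 6717, 2604 and 2673 in P1, against 2473, 2348 and 2736 in AB. P1 replicate 1 was far above the rest, and P1 replicates 2 and 3 lay within the AB range. The log2 fold change was 0.65 ± 0.28 (SE, edgeR adjusted p = 0.538), and 0.04 without P1 replicate 1. When P1 replicate 2 or P1 replicate 3 was left out instead, it passed the threshold at 0.86 (edgeR, adjusted p = 0.0460) and 0.88 (edgeR, adjusted p = 0.0887), with adjusted p between 0.0460 and 0.988 over all 15 other fits. *nuo-4*, related to NDUFA10, was the exception to the lean towards P1, with a log2 fold change of -0.13 and ratios below 0 in all 3 pairs. The core subunits *nuo-1*, *nuo-2* and *nuo-5* and the accessory subunits *nuo-3* and *lpd-5* had log2 fold changes between 0.18 and 0.39.

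Complex II, succinate dehydrogenase, links the citric acid cycle to the chain, and its flavoprotein is encoded by both *sdha-1* and *sdha-2*. *sdha-2* had 2620, 3416 and 3177 normalized read counts per kb in P1, against 2236, 2133 and 2434 in AB. *sdha-1* had 561, 474 and 334 normalized read counts per kb in P1, against 493, 467 and 328 in AB. The *sdha-2* transcript was thus the more abundant in every library, by a ratio per kb of 7.13 ± 2.42 in P1 and 5.51 ± 1.65 in AB (SD, n = 3). The P1 and AB ranges of this ratio overlapped.

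The P1 and AB libraries of *sdha-2* did not overlap. Its normalized read counts were 5332, 6951 and 6465 in P1, against 4549, 4340 and 4954 in AB. Here P1 replicate 1 was the lowest of the P1 libraries, unlike in most genes of the group, and P1 was higher in all 3 pairs with log2 ratios of 0.23, 0.68 and 0.38. The log2 fold change was 0.43 ± 0.22 (SE, edgeR adjusted p = 0.663, and 0.720 with the replicate block). Without P1 replicate 1 it was 0.52 and passed the threshold (edgeR, adjusted p = 0.0387), as it did without both libraries of pair 1 (edgeR, log2 fold change 0.52, adjusted p = 0.0151). Over the 15 other fits its adjusted p lay between 0.0151 and 0.935.

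The remaining genes of complex II are *sdhb-1* (iron-sulfur subunit), *mev-1* and *sdhd-1* (membrane anchors). *sdhd-1* had the highest level per kb of the complex, with 18424, 6477 and 8401 normalized read counts per kb in P1, against 7910, 6328 and 8404 in AB. Only P1 replicate 1 lay outside the AB range. Undivided by length, *sdhb-1* had the higher mean over all libraries, 7468 against 5632 for *sdhd-1*. The log2 fold change of *sdhd-1* was 0.55 ± 0.29 (SE, edgeR adjusted p = 0.668), -0.05 without P1 replicate 1, and 0.79 without P1 replicate 2, where it passed the threshold (edgeR, adjusted p = 0.0901). *sdhb-1* was high in replicate 1 of both cells, with 13104, 5707 and 5996 normalized read counts in P1, against 9026, 5131 and 5843 in AB.

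Complex III passes electrons to cytochrome *c*. Its 6 genes all had log2 fold changes above 0, between 0.06 and 0.43 (median 0.20), and the P1 and AB libraries overlapped for all 6. *isp-1*, the Rieske iron-sulfur protein, had the highest level, with 20880, 11278 and 9996 normalized read counts per kb in P1, against 12226, 9772 and 11248 in AB. Apart from P1 replicate 1 the cells shared one range. *ucr-1* (core protein 1) had a mean of 12026 and *cyc-1* (cytochrome *c1*) of 1760 normalized read counts per kb over the 6 libraries. Undivided by length, *ucr-1* had a higher mean than *isp-1*, 20552 against 12391.

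Core protein 2 of complex III is encoded by 3 genes, which kept one order in every library. *ucr-2.3* had 6062, 4818 and 4351 normalized read counts per kb in P1, against 4626, 4557 and 5394 in AB. *ucr-2.1* had 2180, 1818 and 1825 in P1, against 1704, 1781 and 1858 in AB. *ucr-2.2* had 1278, 958 and 919 in P1, against 1028, 855 and 847 in AB. The ratio per kb of *ucr-2.3* to *ucr-2.1* was 2.61 ± 0.20 in P1 and 2.73 ± 0.17 in AB, and that of *ucr-2.1* to *ucr-2.2* was 1.86 ± 0.14 in P1 and 1.98 ± 0.28 in AB (SD, n = 3). The P1 and AB ranges of both ratios overlapped. *ucr-2.3* and *ucr-2.2* overlap other gene models, so their levels are uncertain to that extent.

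Cytochrome *c*, the carrier between complexes III and IV, has 2 genes, and a single one of them had reads. *cyc-2.1* had 19117, 8924 and 11354 normalized read counts in P1, against 8656, 7530 and 9342 in AB. P1 replicates 1 and 3 were above all AB libraries, and P1 replicate 2 was among them. The log2 fold change was 0.62 ± 0.26 (SE, edgeR adjusted p = 0.511), with ratios of 1.14, 0.25 and 0.28 in the pairs. It passed the threshold only without P1 replicate 2 (log2 fold change 0.80, edgeR adjusted p = 0.0964) among 15 other fits, whose adjusted p reached 0.893. The row of *cyc-2.1* also carries the name of *rpl-20*, a ribosomal protein gene, and the reads of the 2 genes cannot be told apart in it. *cyc-2.2* had 0 reads in all 6 libraries and was not detectable at these depths.

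Complex IV, which reduces oxygen, was represented by *cco-1* and *cco-2*, related to COX5B and COX5A. *cco-2* had 27000 normalized read counts per kb in P1 replicate 1, 12837 and 14760 in P1 replicates 2 and 3, against 14688, 11398 and 14182 in AB. P1 replicate 1 was again far above the rest. The log2 fold changes were 0.43 for *cco-2* and 0.50 for *cco-1*, with adjusted p of 0.686 and 0.645 (edgeR). Of 11 respiratory genes of mitochondrial DNA that were looked up, 0 were found among the gene models, so these subunits could not be followed.

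In every library the highest level per kb of the whole set was that of an ATP synthase gene. *atp-2*, the catalytic beta subunit of the F1 head, had 80098, 67925 and 51847 normalized read counts per kb in P1, against 60814, 55075 and 46369 in AB. It was higher in P1 in each pair (log2 ratios 0.40, 0.30 and 0.16), but the cells overlapped, and replicates of the same number lay high or low together. Its log2 fold change was 0.29 ± 0.27 (SE, edgeR adjusted p = 0.746). Within ATP synthase, *atp-2* was followed by *atp-5* (subunit d), *atp-3* (the stalk subunit OSCP) and *atp-4* (coupling factor 6), with mean levels of 22453, 19271 and 14385 normalized read counts per kb. Undivided by length, *atp-3* (mean 18481) came before *atp-5* (17760), and *asb-1* (12002) before *atp-4* (7797).

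For the b and g subunits of ATP synthase the genome holds 2 genes each, and 1 gene of each was dominant in both cells. *asb-1*, known from worms as the germline form of subunit b, had 17041, 10442 and 11383 normalized read counts per kb in P1, against 10845, 9022 and 11452 in AB. *asb-2* had 2576, 1599 and 1795 in P1, against 2010, 1566 and 1455 in AB. The *asb-1* to *asb-2* ratio per kb was 6.496 ± 0.141 in P1 and 6.343 ± 1.335 in AB (SD, n = 3), and it varied more among the AB libraries (5.40 to 7.87) than the means differed.

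The pattern was the same for the g subunit. *asg-1* had 25093, 10922 and 11640 normalized read counts per kb in P1, against 10463, 10765 and 12937 in AB. *asg-2* had 7037, 3930 and 3965 in P1, against 3272, 3930 and 3941 in AB. Only P1 replicate 1 was far from the rest for either gene. Their ratio per kb was 3.09 ± 0.42 in P1 and 3.07 ± 0.29 in AB (SD, n = 3), so the balance of the 2 genes differed by less than the spread between libraries. All 8 genes of ATP synthase had P1 replicate 1 as their highest library and log2 fold changes between 0.24 and 0.47, with adjusted p of 0.686 or more (edgeR).

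**Figure D3:**
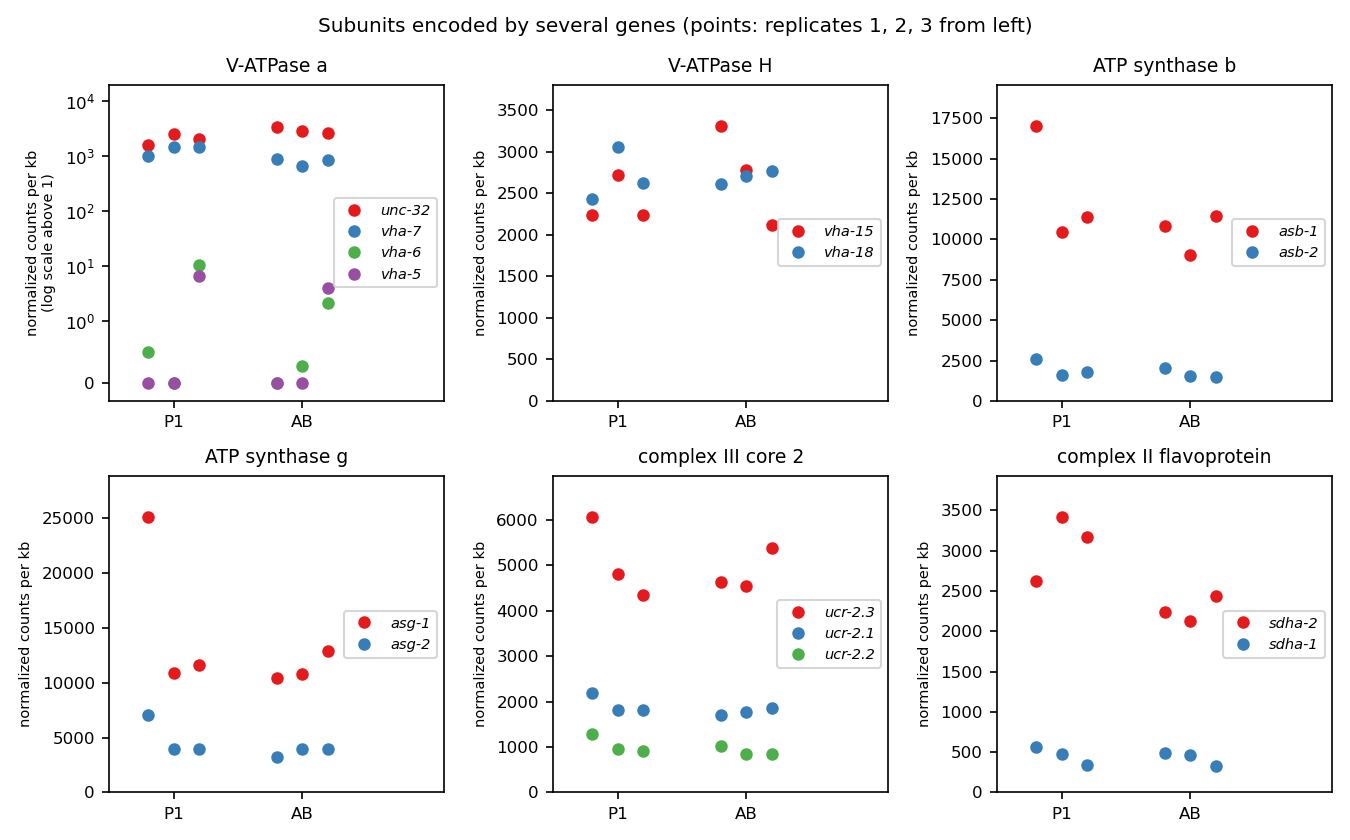
Normalized read counts per kb (y axis) of genes that encode the same subunit, in P1 (left) and AB (right), with replicates 1, 2 and 3 from left to right; the y axis of the V-ATPase a subunit is logarithmic above 1. *unc-32* and *vha-7* draw together in P1 (ratio 0.635) and apart in AB (ratio 0.269), *vha-5* and *vha-6* lie near 0, and of the other families plotted only *vha-15* and *vha-18* change their order between libraries.

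Of the V-ATPase, the V1 sector (subunits A to H) had 9 genes, all present, with log2 fold changes between -0.19 and 0.34 (median 0.14). *vha-9* (subunit F), *vha-13* (the catalytic subunit A) and *vha-10* (subunit G) had the highest levels per kb, with means of 10718, 9338 and 6115 normalized read counts per kb. The row of *vha-13* also carries the name of a second gene, *Y49A3A.3*, whose reads cannot be told apart from it. The lowest per kb was *vha-11* (subunit C), at 1307. Undivided by length, *vha-13* and *vha-12* (subunit B) led with means of 21786 and 11374, against 5552 for *vha-9* and 3938 for *vha-10*. The P1 and AB libraries overlapped for all 9 genes.

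Subunit H of V1 is encoded by *vha-15* and *vha-18*, at about equal levels. *vha-15* had 2244, 2716 and 2242 normalized read counts per kb in P1, against 3313, 2781 and 2122 in AB. *vha-18* had 2436, 3054 and 2618 in P1, against 2616, 2709 and 2764 in AB. *vha-18* was above *vha-15* in all 3 P1 libraries and below it in AB replicates 1 and 2. Their ratio per kb of spliced transcript was 1.13 ± 0.04 in P1 and 1.02 ± 0.26 in AB (SD, n = 3), and the ranges overlapped. Per kb of coding length, *vha-18* was above *vha-15* only in P1 replicate 3 and AB replicate 3.

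In the V0 sector, the proton-carrying ring is built from proteolipids encoded by *vha-1*, *vha-2* and *vha-3* (subunit c) and *vha-4*. *vha-2* had the highest mean level per kb of the V-ATPase over the 6 libraries, with 27765, 9873 and 8233 normalized read counts per kb in P1, against 17602, 9483 and 8335 in AB. Undivided by length, *vha-13* had the higher mean, 21786 against 13061. *vha-2* was high in replicate 1 of both cells, and in the other 4 libraries *vha-1* was higher per kb of spliced transcript. *vha-1*, which lies 93 bp from *vha-2* on chromosome III, had 20212, 11016 and 11007 in P1, against 9066, 10256 and 11298 in AB. For *vha-1*, only P1 replicate 1 was high. The order of the 2 genes rests on the length used, with spliced lengths of 964 bp for *vha-2* and 510 bp for *vha-1*. Per kb of coding length (483 and 507 bp), *vha-2* was the higher in all 6 libraries, with ratios to *vha-1* between 1.464 and 3.852. *vha-2* and *vha-3* are known to encode the same protein, and reads may have been split between them. *vha-3* has no public name in the table and was therefore not among the 50. It had 1146, 484 and 1892 normalized read counts in P1, against 502, 691 and 2660 in AB, and the sum of *vha-2* and *vha-3* was 27911, 10001 and 9828 in P1, against 17470, 9833 and 10695 in AB.

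The a subunit of V0, the large membrane protein that carries the proton path and directs the pump to its compartment, has 4 genes, and 2 of them were expressed. *unc-32* had 5283, 8378 and 6755 normalized read counts in P1, against 11008, 9380 and 8771 in AB. Every P1 library was below every AB library. The log2 fold change was -0.52 ± 0.24 (SE, edgeR adjusted p = 0.586), and the log2 ratios were -1.06, -0.16 and -0.38 in pairs 1, 2 and 3. *vha-7*, by contrast, had 3825, 5753 and 5642 normalized read counts in P1, against 3393, 2552 and 3260 in AB. Every P1 library was above every AB library. Its log2 fold change was 0.72 ± 0.24 (SE, edgeR adjusted p = 0.250, the smallest of the 47), and the log2 ratios were 0.17, 1.17 and 0.79.

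The *vha-7* difference was larger without the library that stood apart. Without P1 replicate 1, its log2 fold change was 0.87 and passed the threshold (edgeR, adjusted p = 6.87e-06), and without both libraries of pair 1 it was 0.96 (edgeR, adjusted p = 2.32e-08). In the other 13 of 15 fits it did not pass, and its adjusted p reached 0.921. A block for the replicate number gave 0.71 (edgeR, adjusted p = 0.444). *vha-7* and *sdha-2* were the 2 of 47 members called without P1 replicate 1, when 3.21% of all present genes were called higher in P1 and 3.51% lower, and again without both libraries of pair 1, when the shares were 3.69% and 3.01%. The number of members called was thus close to the background. Without P1 replicate 2, 3 of the 47 were called higher (*nuo-6*, *sdhd-1* and *cyc-2.1*, all of the electron transport chain), when 3.57% of all present genes were called higher and 2.71% lower. P1 replicate 1 was the highest library for each of these 3. Without P1 replicate 3, 1 of the 47 was called higher (*nuo-6*), when the shares were 1.8% and 1.77%.

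The ratio of the 2 genes restates these opposite directions within each library, so a test of it adds no support. An exact permutation test gave p = 0.1, the smallest value it can give here, which was fixed once the ranges lay apart. The ratio of *vha-7* to *unc-32*, per kb of spliced transcript, was 0.614, 0.582 and 0.708 in P1, against 0.261, 0.231 and 0.315 in AB. The ranges of the cells lay apart, as they must where neither gene overlaps, and P1 replicate 1 lay between the other P1 libraries. The mean was 0.635 ± 0.065 in P1 and 0.269 ± 0.043 in AB (SD, n = 3), a 2.37-fold difference of geometric means. Of the 8 ratios between genes of one subunit that were computed, this was the only one whose P1 and AB ranges did not overlap. With coding length the means were 0.560 in P1 and 0.237 in AB. Both transcripts are long, 3853 bp for *vha-7* and 3266 bp for *unc-32*. The summed counts of the 4 a-subunit genes were 9109, 14131 and 12444 in P1, against 14401, 11933 and 12049 in AB, and these overlapped. *vha-6*, known from the intestine, had 1, 0 and 29 raw reads in P1, against 0, 1 and 7 in AB. *vha-5*, known from the hypodermis and excretory cell, had 0, 0 and 20 raw reads in P1, against 0, 0 and 14 in AB. Nearly all reads of both were in replicate 3.

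The remaining V0 and accessory genes were *vha-16* (subunit d), *vha-17* (subunit e), *vha-4* and *vha-19* (related to the accessory protein Ac45). *vha-17* had 3593, 2095 and 1844 normalized read counts in P1, against 1669, 1823 and 1600 in AB. The cells did not overlap, but P1 replicate 3 exceeded the highest AB library by little and most of the difference was in P1 replicate 1. Its log2 fold change was 0.55 ± 0.25 (SE, edgeR adjusted p = 0.571), and 0.19 without P1 replicate 1. *vha-17* and *vha-19* each overlap another gene model.

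**Figure D4:**
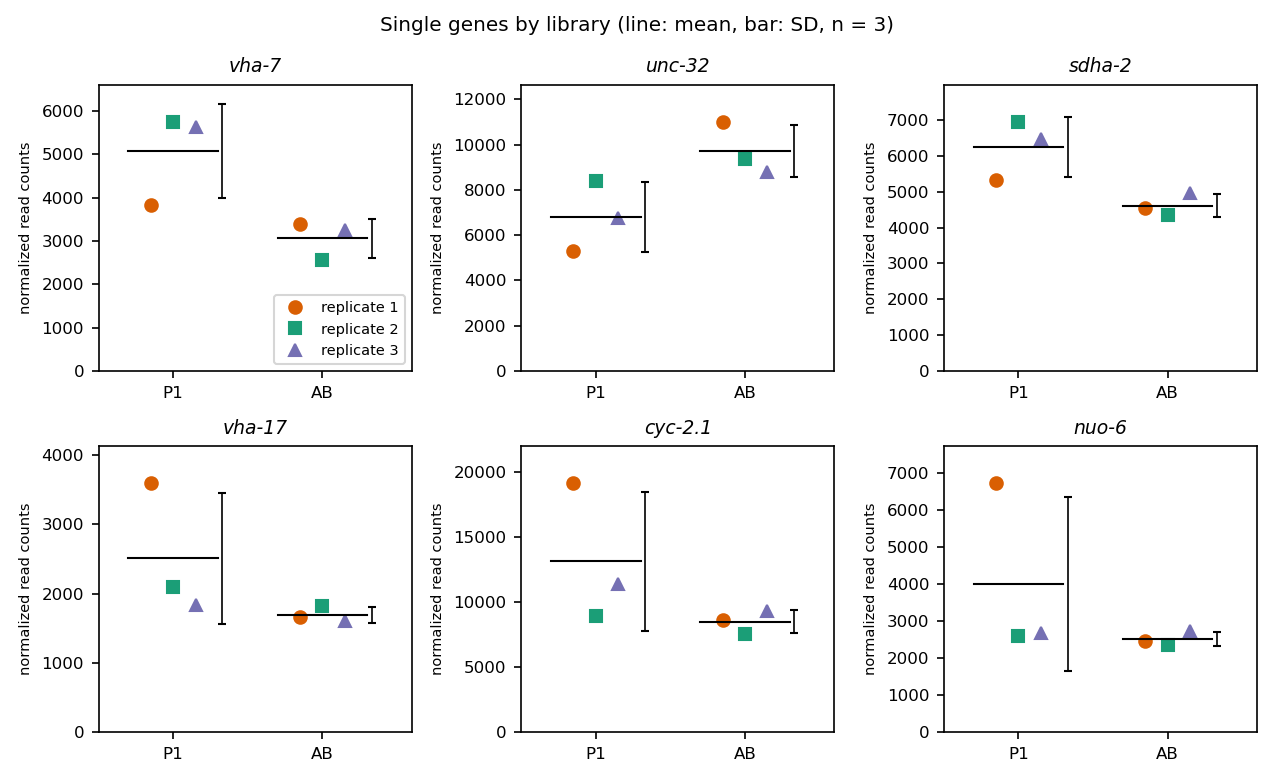
Normalized read counts (y axis) of 6 genes in each library of P1 (left) and AB (right), with the mean as a line and the SD (n = 3) as a bar. *vha-7*, *sdha-2* and *vha-17* have every P1 library above every AB library and *unc-32* has every one below, while *cyc-2.1* overlaps between the cells and *nuo-6* has a single high library, P1 replicate 1 at 6717.

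Among the 47 members, 4 had all 3 P1 libraries above all 3 AB libraries (among them *vha-7*, *vha-17* and *sdha-2*), against 7.1% of all present genes, and 1 (*unc-32*) had them all below, against 8.81%. The count above was thus near the background and that below was under it. With P1 replicate 1 left out the numbers were 4 and 2, the second being *nuo-4*, against 13.2% and 12.8% of all present genes.

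Group sums follow their most abundant genes and do not show that single genes varied alike. Summed over the electron transport chain, the normalized read counts were 223220, 140840 and 136130 in P1, against 139838, 126267 and 134625 in AB. For ATP synthase they were 258517, 190911 and 161219 in P1, against 176344, 162391 and 150291 in AB. For the V-ATPase they were 153127, 115111 and 101203 in P1, against 121126, 104149 and 98044 in AB. P1 replicate 1 was the highest library in all 3 sums. The P1 libraries varied more than the AB libraries, with median coefficients of variation between 25.1% and 30.8% in P1 in the 3 groups, against at most 11.1% in AB. Over all present genes they were 29.2% in P1 and 15.5% in AB, so that it was among the AB libraries that the members varied less than most genes. The lowest mean of a present member was 1063 normalized read counts (*sdha-1*), whereas a present gene needs only a mean above 10. Genes of like level were not compared.

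Subunits of the same complexes that carry other names behaved alike. Of 17 other genes of complex I, all present, 16 had a log2 fold change above 0 (median 0.36), with median ratios of 0.93, 0.07 and -0.03 in pairs 1, 2 and 3. The 6 that were found of 7 other genes of complexes III and IV had a median of 0.55, and ratios of 1.21, 0.11 and 0.09. The 7 other genes of ATP synthase and its inhibitors had a median of 0.47, and ratios of 1.11, 0.08 and -0.02. The edgeR test called 0 of these 30 genes, against 0.856% of all present genes called higher in P1 and 0.604% lower. At an unadjusted p under 0.05 it found 3, 3 and 2 of the lists, all higher in P1. Of all present genes, 5.8% were higher and 4.59% lower at that level. P1 replicate 1 was the highest library for 16, 6 and 7 genes of the lists, against 33.3% of all present genes. Without it, the median log2 fold changes were -0.02, 0.14 and 0.04, against -0.02 over all present genes. The median spliced lengths of the lists were 737, 462 and 663 bp, shorter than that of the 47. Of 12 genes of ubiquinone synthesis and of the adenine nucleotide translocase, which trades ATP for ADP across the inner membrane, 10 were present and 0 were called (median log2 fold change 0.25, 1 at an unadjusted p under 0.05). *ant-1.1* was the translocase gene in use, with 137702, 94698 and 82009 normalized read counts in P1, against 89645, 86624 and 81079 in AB. The other translocase genes reached at most 58.1 normalized read counts.

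The 50 genes lie on all 6 chromosomes, with 10, 6, 11, 9, 6 and 8 on I, II, III, IV, V and X. The 8 X-linked genes, all present, had a median log2 fold change of 0.22. In ce10 coordinates, *vha-7* lies on chromosome IV from 12640435 to 12650620, *unc-32* on chromosome III from 8905538 to 8911670, and *sdha-2* on chromosome I from 10683275 to 10685613. *atp-2* lies on chromosome III from 5228376 to 5230505. These 4 gene models overlap no other gene model of the table.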

How the data were processed

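Raw counts of reads on each gene model and normalized counts were deposited. The normalized counts are a signal that the authors obtained by dividing each library by its DESeq size factor. Per the study's methods, reads were filtered with Tagdust, aligned to ce10 and counted on RefSeq gene models. The submitters' processing notes name FastQC, TopHat 1.4.0, HTSeq 0.5.3 and DESeq 1.2.1. Whether strand was used in counting, how reads matching several genes were handled, and which libraries had which read length are not given in the sources used here, so 8 of the 50 members that overlap another gene model are uncertain, as are 2 rows that hold a second gene. All sample columns were used (0 left out).

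Fold changes, P1 over AB, were fitted by edgeR 4.0.16 under R 4.3.3 (quasi-likelihood test, TMM, cell as the only term) to the 13717 gene models that had 1 read or more, and p-values were adjusted by Benjamini-Hochberg over that table. Genes were called if present and under an adjusted p of 0.10. The members and lists were chosen with earlier results of these data known, so lists are given by counts and medians without a test. Values by library are given for members whose cells do not overlap, members of subunits with several genes, the member of each complex with the highest level per kb, and members with few reads. *nuo-6*, *sdhd-1*, *sdhb-1*, *cyc-2.1*, *ant-1.1* and *vha-3* were partly or wholly added after their values were seen. Lengths are the spliced or coding length of the longest transcript in the WBcel235 annotation, found for 98.3% of present genes. Names missing in the table were taken from its RefSeq name (486 rows). The values of 1 complex I member are not reported here by name, though it is in the counts and medians. Within-pair ratios used normalized counts with a pseudocount of 1.

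Pairing comes from the study's methods (matched cells). Deviations from the mean of each cell correlated at 0.175, 0.220 and 0.173 between same-numbered P1 and AB libraries. Between libraries of different numbers they correlated at -0.219 to 0.0797. Deviations within a cell sum to 0, so these values are not independent of each other. They cannot tell matched cells from shared processing of a replicate number. On simulated counts of P1 against AB (12952 genes), edgeR recovered 37 of 100 genes changed by 1 on the log2 scale and 73 of 100 changed by 2, and 4 of its 114 calls were unchanged genes. DESeq2 1.42.0 recovered 47 and 79, with 45 of 171 calls unchanged. The simulated libraries were drawn independently from the dispersion trend, without pairs and without a library that stood apart. Changed genes were drawn from those with a mean above 10 counts, so these shares do not describe the members. Alternatives were DESeq2, other size factors, other filters, the replicate block, a threshold of 0.05, a pseudocount of 10, coding length, and each library or pair left out. Python 3.11.15, numpy 2.4.6, pandas 2.3.3, scipy 1.17.1 and matplotlib 3.10.9 were used for the rest.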

Additional observations from a re-analysis of the deposited data

How the results depend on the processing

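The number of members called stayed at 0 with DESeq2, median-of-ratios size factors, library totals, both other filters on genes and the replicate block. With the block, the pairing left 51 genes called higher and 40 lower over all present genes, medians of 0.24, 0.29 and 0.23 for the electron transport chain, ATP synthase and the V-ATPase, and changed no other call. Over all present genes, the fit on present genes only called 27 higher and 25 lower, filterByExpr 27 and 26, and DESeq2 75 lower. With libraries or pairs left out, these calls ranged from 44 to 293 higher and from 27 to 279 lower. Calls higher in P1 then ranged from 0 to 3 in the electron transport chain and from 0 to 1 in the V-ATPase, and were 0 in ATP synthase. The medians ranged from 0.01 to 0.43, from 0.02 to 0.47 and from 0.037 to 0.44 in the 3 groups, lowest without P1 replicate 1. The log2 fold change of *sdhd-1* turned to -0.046 without it and ranged from -0.046 to 0.81 over these fits, and the cause was not tested. *vha-7*, *sdha-2*, *nuo-6*, *cyc-2.1* and *sdhd-1* passed the threshold in 2, 2, 2, 1 and 1 of the fits with a library or pair left out, at the values given above, and the call rested on the library omitted. With spliced length, the ratio of *vha-2* to *vha-1* was 1.104. With coding length it was 2.19, and *vha-2* was then above *vha-1* in every library. Chosen after the data were seen were library totals as the scaling, counts over pairs 2 and 3, and overlap without P1 replicate 1, which left 4 members above and 2 below. A fit without a library of a pair holds 2 libraries of that cell. In the main edgeR fit to all 6 libraries, no present gene with a log2 fold change under 0.847 in size was called.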
